A study of Mus musculus with 30 samples.

Results

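Cystatin C and 9 proteins of the lysosome were followed in RNA-seq libraries of sorted interneurons from the mouse medial prefrontal cortex (mPFC). The 10 genes were Cst3, Ctsb, Ctsd, Ctsl, Ctss, Ctsz, Lgmn, Lamp1, Npc2 and Cd68, found by symbol among the 23993 genes of the deposited table. They were chosen by measured values: Cst3 was picked because it was the most abundant gene in the Pvalb libraries, and the others were named with results of the same table in view. All 10 were in the table and passed the filter on low values in every comparison, which kept genes whose FPKM averaged above 0.4. FPKM, a fragment count per transcript length and mapped fragments, is scaled for gene length and sequencing depth, so levels of different genes can be set beside each other.

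The study asked how the transcriptomes of Sst and Pvalb interneurons differ between the sexes and after chronic unpredictable stress (CUS). Mice of the C57BL/6 strain, 6 to 12 weeks old, were heterozygous for Sst-Cre or Pvalb-Cre and for the Ai9 reporter (RCL-tdTomato), so that cells in which Cre had ever been active carried tdTomato, controls included. The mPFC was dissociated with papain and tdTomato cells were collected by FACS. There were 7 libraries of nonstressed Sst females, 7 of nonstressed Sst males, 7 of nonstressed Pvalb males and 3 of Sst males that had gone through 14 days of CUS, and 6 further samples in the labels were not analysed here. The study counts its replicates in mice, but the labels tie no library to an animal, so the p-values measure only the spread between these samples.

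Several properties of the libraries bear on every value below. SST0-M and SST1-M differed by less than the noise between other pairs, as did PV0-M and PV2-M, and each pair was averaged and counted as 1 sample, which left 22. Titles of the Sst male controls were of 2 kinds. After averaging, 3 samples carried a running number, as in SST3-M (numbered), and 3 a longer number, as in SS04031R. The latter are called dated here after the form of the number, although the labels do not say that it is a date. All 3 CUS libraries were dated, and all female and Pvalb libraries were of the numbered kind, SST-F having no number. Genes of small nucleolar RNA held 53.7% to 75.9% of the total FPKM in the dated libraries and 1.87% to 8.29% in the numbered ones. Although labelled male, the Pvalb libraries PV5-M, PV4-M and PV1-M had 300.2 to 333 FPKM of Xist, the RNA of the inactive X chromosome, against 479 to 644 in the female libraries and at most 6.64 in the other libraries labelled male. Read depth is unknown from FPKM, so no counting error can be given.

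Markers of the labelled cells were low and those of microglia were high. The mean log2(FPKM + 1) over 8 interneuron markers was 1.04 to 2.21 in the 22 samples, and over 14 microglia markers it was 7.53 to 9.23. For the other lists it was 5.40 to 7.54 (oligodendrocytes), 4.68 to 6.10 (astrocytes), 2.09 to 4.31 (neurons), 1.02 to 5.04 (endothelial cells) and 0.392 to 3.04 (perivascular macrophages). None of the 14 microglia markers was at 0 in any sample, while Dlx6os1 was at 0 in 9 samples, Lhx6 and Dlx1 in 5 each, Slc32a1 in 3 and Gad1 in 1. Sst itself was at 4.18 to 49.3 FPKM in Sst females (median 10.1), 0.238 to 6.02 in numbered Sst males, 0 to 2.89 in dated Sst males, 1.71 to 5.54 after CUS and 12.5 to 30.5 in Pvalb males (median 24.9). Against the labels, it was thus higher in every Pvalb sample than in any male Sst sample. Pvalb was at 0.890 to 5.07 FPKM in the Pvalb samples and at most 1.93 in the Sst samples. The summed FPKM of the microglia markers was 3185 to 5724 in Sst females, 6452 to 10562 in numbered Sst males, 3888 to 8622 in dated Sst males, 3110 to 3601 after CUS and 6263 to 8744 in Pvalb males. Fewer cells of a type and less RNA per cell cannot be told apart in such bulk samples.

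Lysosomes are acidic organelles in which proteins, lipids and glycans taken up or sequestered by the cell are broken down. Cathepsins are their proteases: most, including cathepsins B, L, S and Z, use a cysteine in the active site, whereas cathepsin D uses aspartate and legumain cuts after asparagine. Cystatin C is a small secreted protein that inhibits cysteine cathepsins outside and inside the cell. In the brain these genes are strongly expressed by microglia, cystatin C also by astrocytes, and neurons depend on lysosomal clearance for survival.

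In the mouse genome (GRCm38.p6, RefSeq), Cst3 lies at chr2:148871722-148875512, Ctsd at chr7:142375910-142387827, Ctss at chr3:95526786-95556405, Lgmn at chr12:102394082-102439728 and Lamp1 at chr8:13159161-13175338. Ctsl is at chr13:64361890-64370772, Npc2 at chr12:84754559-84773112 and Cd68 at chr11:69664213-69666170. Ctsb (chr14:63122462-63145923) overlaps Fdft1, Ctsz (chr2:174427494-174439039) overlaps Nelfcd and Ctss overlaps the pseudogene Hmgb1-ps5, so reads at these genes may have been shared between both partners.

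Promoters of 4 of the genes are shown because these genes moved in different ways over all 22 samples (below). There Lamp1, Ctsd and Cst3 varied together, and Ctss did not follow them. The contrast was smaller over the 16 samples with numbered titles. Pearson's r of Ctss was 0.423 with Cst3, 0.598 with Ctsd and 0.279 with Lamp1 in these. Each runs from 250 bases before to 50 bases after a RefSeq start (GRCm38.p6), read along the gene's strand. Capitals mark CACGTG, the E-box core to which the lysosomal regulator TFEB and its relatives bind, with an adjoining T (TCACGTG on either strand), and GAGGAAGT on either strand, a sequence of the type bound by the myeloid factor PU.1.
Lamp1, chr8:13158911-13159210, plus strand: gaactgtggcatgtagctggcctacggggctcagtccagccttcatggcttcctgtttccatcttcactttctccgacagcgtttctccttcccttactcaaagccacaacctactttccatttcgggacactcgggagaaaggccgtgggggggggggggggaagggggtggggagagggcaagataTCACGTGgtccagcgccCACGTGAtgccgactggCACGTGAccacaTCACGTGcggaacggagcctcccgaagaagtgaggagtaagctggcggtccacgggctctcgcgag
Ctsd, chr7:142387778-142388077, minus strand: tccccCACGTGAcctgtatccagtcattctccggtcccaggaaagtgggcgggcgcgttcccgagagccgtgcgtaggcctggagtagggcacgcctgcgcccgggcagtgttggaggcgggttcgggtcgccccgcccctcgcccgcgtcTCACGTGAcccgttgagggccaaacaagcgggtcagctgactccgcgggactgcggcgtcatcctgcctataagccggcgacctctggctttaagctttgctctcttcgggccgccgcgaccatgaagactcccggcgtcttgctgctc
Cst3, chr2:148875463-148875762, minus strand: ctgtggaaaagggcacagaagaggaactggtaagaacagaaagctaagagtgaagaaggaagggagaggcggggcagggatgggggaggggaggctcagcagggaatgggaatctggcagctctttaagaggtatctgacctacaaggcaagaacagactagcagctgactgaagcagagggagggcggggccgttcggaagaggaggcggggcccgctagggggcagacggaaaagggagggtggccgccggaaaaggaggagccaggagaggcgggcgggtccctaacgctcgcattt
Ctss, chr3:95526536-95526835, plus strand: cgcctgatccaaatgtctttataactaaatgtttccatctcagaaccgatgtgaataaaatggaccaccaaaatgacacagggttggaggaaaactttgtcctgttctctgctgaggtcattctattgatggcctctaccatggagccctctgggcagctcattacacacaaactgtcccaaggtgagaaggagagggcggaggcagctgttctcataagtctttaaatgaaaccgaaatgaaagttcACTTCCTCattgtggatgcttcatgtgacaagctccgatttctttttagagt

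The Lamp1 window held CACGTG 4 times and the Ctsd window 2 times, each time with the adjoining T, whereas the Cst3 and Ctss windows held none. Over the 9 genes with a promoter in the reference, which had 10 windows, CACGTG was found for 4 genes (also Ctsl and the downstream of 2 Lgmn starts), TCACGTG for 3 and GAGGAAGT for 1, Ctss. The Ctsl window and the downstream Lgmn window lie wholly within the spans of their genes. Among 32851 promoters of the same length, counted by promoter and not by gene, CACGTG was in 7.15%, TCACGTG in 3.77% and GAGGAAGT in 3.20%. TCACGTG contains CACGTG, so these counts overlap. The motifs were chosen with earlier results of these data known, and a match describes the letters of a window and nothing more.

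Cst3 was the most abundant protein-coding gene in 13 of 13 Sst control samples and in 3 of 3 CUS samples. It also came first in the 6 Pvalb samples, but it was chosen for its level there, so this is no separate result. Its FPKM was 4422 in the lowest female sample, with a median of 4746 and a highest value of 5131. The numbered males had 6916 (SST0-M with SST1-M), 6917 (SST4-M) and 13566 (SST3-M), and the dated males 4224 (SS04031R), 2343 (SST040241L) and 2614 (SST04241LL). After CUS it was 2480 (SS04031LL), 2060 (SS04031RL) and 2204 (SS04031RR), the order used below, and in Pvalb males it ran from 4399 over a median of 8717 to 9073. The female samples lay close together, below every numbered and above every dated male control, and the only Pvalb sample under 8545 was the averaged PV0-M and PV2-M. Cst3 alone made up 0.903% to 4.89% of the FPKM of all protein-coding genes, and the 10 genes together 2.17% to 6.80%.

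Among the proteases, cathepsin D and cathepsin S were the most abundant. Ctsd, the aspartic protease, ranked between 2 and 15 among protein-coding genes over the 22 samples, and Ctss, a cysteine protease of myeloid cells that stays active at neutral pH, between 2 and 40. Ctss had 554, 609 and 909 FPKM as the lowest, median and highest female value. Its values were 1328 (SST0-M with SST1-M), 1536 (SST3-M) and 916 (SST4-M) in the numbered males, and 3831 (SS04031R), 1645 and 1878 in the dated ones. They were 1656, 1286 and 1481 after CUS, and 502, 686 and 996 as lowest, median and highest in Pvalb males. All 6 dated samples, controls and CUS, lay above every female and every Pvalb sample.

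Ctsd showed another order of the groups. It stood at 607, 763 and 1201 FPKM (lowest, median and highest) in females, at 2088, 1815 and 1114 in the numbered males and at 1531, 724 and 772 in the dated males. After CUS it was 634, 590 and 677, and in Pvalb males 1272, 1440 and 1983. The lowest numbered male was therefore below the highest female, SST-F.

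The other cysteine proteases were less abundant. Ctsb, a cathepsin with both endopeptidase and exopeptidase activity, spanned 79.5 to 296 FPKM over all samples, Ctsl, an endopeptidase, 83.4 to 256 and Ctsz, a carboxypeptidase, 84.1 to 307. Lgmn, the asparaginyl endopeptidase that also matures cathepsins, spanned 153 to 1200.4. Its female values were 153, 177 and 272 (lowest, median and highest), below the dated males with 1200.4, 590 and 629 and below the numbered males with 525 and 447 but not SST4-M with 270.1.

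Of the proteins that are not proteases, Lamp1, the glycoprotein that lines the lysosomal membrane, varied least, from 173 to 336 FPKM. Cd68, a related glycoprotein of macrophages and microglia, spanned 88.9 to 460.0 FPKM, with all 3 CUS libraries (132, 88.9 and 108) below every control. Npc2, a cholesterol-binding protein of the lysosome, was the least abundant of the 10 in each group, from 17.7 to 75.0 FPKM.

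**Figure D1:**
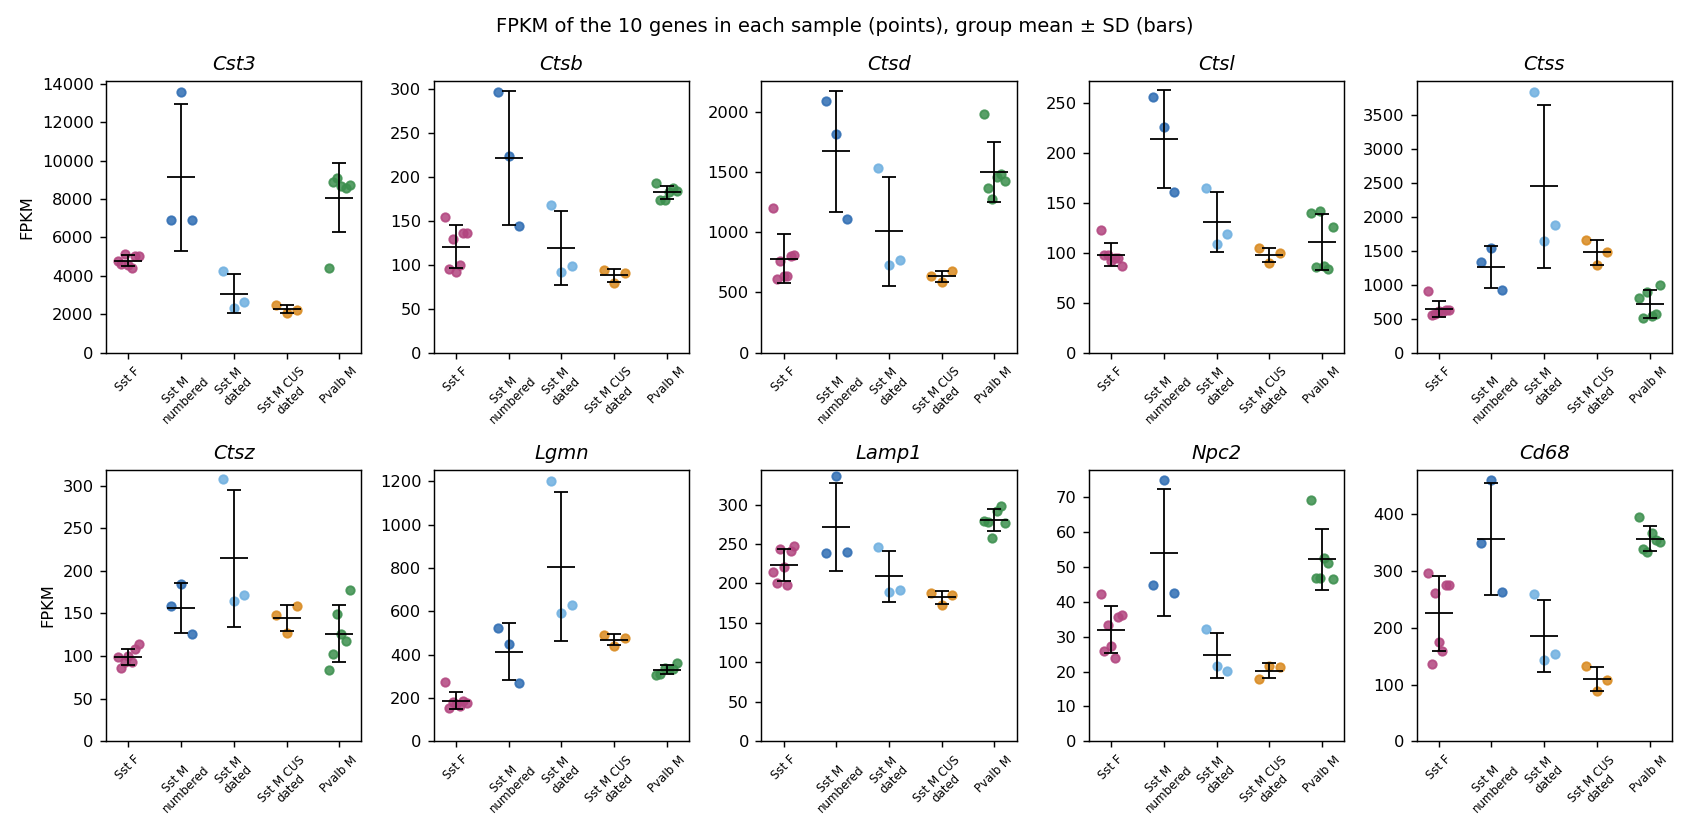
FPKM (vertical axis, linear, from 0) of each of the 10 genes in each of the 22 samples, by group. Points are samples and bars the group mean ± SD. Cst3 has its highest sample at 13566 FPKM (SST3-M, numbered Sst male), and the dated samples lie low for Cst3 but high for Ctss and Lgmn.

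The order of the levels within a group was the same at its ends and differed in the middle. In Sst females, numbered Sst males and Pvalb males, the order began with Cst3, Ctsd and Ctss, while in the dated controls and after CUS it began with Cst3, Ctss and Ctsd. Ranges of Cst3 and the next gene did not overlap, except in the dated controls, where Cst3 (2343 to 4224) and Ctss (1645 to 3831) overlapped although Cst3 was higher in 3 of 3 samples. The ranges of Ctsd and Ctss overlapped in females and in numbered males, with Ctsd higher in 7 of 7 and 3 of 3 samples. Further down, Cd68 and Lamp1 in females (Cd68 higher in 4 of 7 samples), Ctsz and Ctsl in females (3 of 7) and Ctsz and Lamp1 in the dated controls (1 of 3) did not differ beyond their spread.

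Within a sample, the RNA level of Cst3 relative to cysteine cathepsins differed between the title series. The FPKM of Cst3 divided by the sum of Ctsb, Ctsl, Ctss and Ctsz was 3.69 to 5.77 in females (median 5.21). It was 3.39, 6.25 and 5.14 in the numbered males, and 0.945, 1.17 and 1.15 in the dated males. After CUS it was 1.24, 1.30 and 1.21, and in Pvalb males 3.59 to 10.3 (median 7.83). No dated sample, control or CUS, reached the lowest numbered one. Ctss alone made up 57.7% to 70.8% of the summed cathepsin FPKM in the numbered samples and 81.0% to 85.7% in the dated ones. Ctss over Ctsd separated the same samples, at 2.18 to 2.61 in the 6 dated samples and 0.368 to 0.953 in the 16 others. Both ratios were formed after the values had been seen and were not tested.

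**Figure D2:**
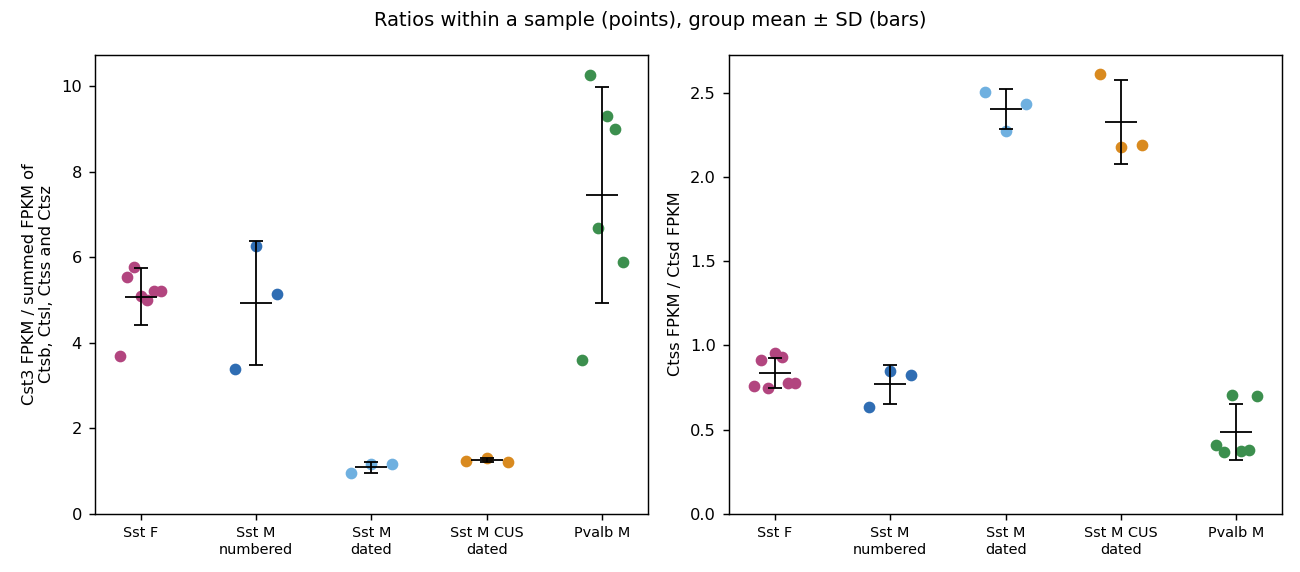
Left, FPKM of Cst3 divided by the summed FPKM of Ctsb, Ctsl, Ctss and Ctsz; right, FPKM of Ctss divided by that of Ctsd. Points are samples and bars the group mean ± SD; the dated controls (mean 1.09) and the CUS samples (mean 1.25) lie apart from all other samples on the left, and the Pvalb samples spread from 3.59 to 10.3.

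Inside the Pvalb group the libraries were also set apart by Xist level, a split made after the values had been seen and not tested. In the 3 libraries high in Xist the first ratio was 8.99 to 10.3, and it was 3.59 in the averaged PV0-M and PV2-M, 6.67 in PV3-M and 5.89 in PV6-M. Ctss was 502, 539 and 561 FPKM in the former and 810, 896 and 996 in the latter, and Ctsl 83.4 to 86.8 against 126 to 142. Cst3 was 8545 to 8869 in the former and 4399, 9073 and 8740.3 in the latter.

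The genes did not vary as a single set over the 22 samples. Pearson's r of log2(FPKM + 1) was 0.700 to 0.953 for the 15 pairs among Cst3, Ctsb, Ctsd, Lamp1, Npc2 and Cd68, and 0.859 to 0.887 for the 3 pairs among Ctss, Ctsz and Lgmn. Across these sets the 18 pairs had r from -0.399 to 0.335, lowest for Cst3 with Ctss. Over the 16 samples with numbered titles, by contrast, r was above 0 for 45 of 45 pairs (0.214 to 0.953), and the 18 pairs across the sets had a median of 0.613. All genes were measured in the same libraries with the same normalization, and the sets were drawn after r had been seen, so r is a description. With the mean of the 14 microglia markers, r over the 16 numbered samples was 0.906 for Cst3, 0.893 for Lgmn, 0.505 for Ctss and 0.446 for Ctsl. Over all 22 samples it was 0.777 for Cst3, 0.395 for Lgmn, 0.148 for Ctss and 0.518 for Ctsl.

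**Figure D3:**
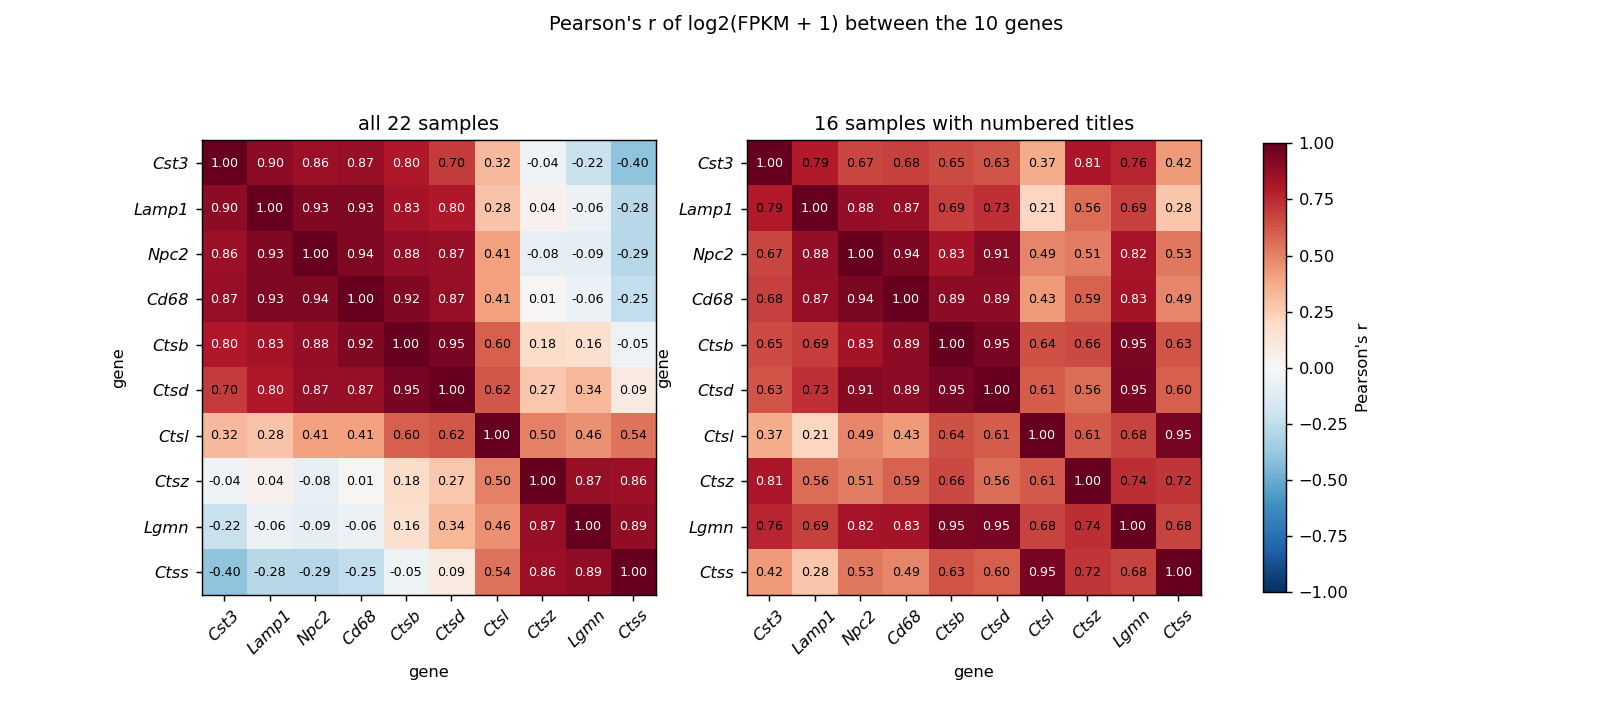
Pearson's r of log2(FPKM + 1) between each pair of the 10 genes, over all 22 samples (left) and over the 16 samples with numbered titles (right); colours run from -1 (blue) to 1 (red). On the left Ctsz, Lgmn and Ctss stand apart from Cst3, Lamp1, Npc2 and Cd68 (r from -0.399 to 0.0438), and on the right every pair is above 0.

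The genes most like Cst3 over the 22 samples were not among the 10. Of 14565 other genes, the highest r was that of Arhgdib (0.964), followed by Lrrc3 (0.959), Ly86 (0.955), which binds the receptor-like protein CD180 on immune cells, N4bp1 (0.953) and Sh3bgrl3 (0.952). Over the 16 numbered samples their r was 0.856 to 0.911. By Spearman's rho, 2 of these 5, Arhgdib (0.936) and Sh3bgrl3 (0.934), were again among the first 5. Of the 9 other members, Lamp1 (0.896) came nearest, in place 54, and Ctss was last (-0.399).

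To ask whether the sexes differed under basal conditions, the 7 female samples were compared with the 3 numbered males, the title kind of the females. All 10 genes had lower means in females, and 4 of the 10 passed the test (limma on log2(FPKM + 1), Benjamini-Hochberg adjusted p below 0.05 over 14443 genes), where 1.66% of all genes tested were called lower. The 4 were Ctsl, with a difference of -1.10 on the log2 scale (SE 0.18, adjusted p = 0.0147), Lgmn (-1.12, SE 0.24, adjusted p = 0.0323), Ctss (-0.96, SE 0.22, adjusted p = 0.0416) and Ctsd (-1.09, SE 0.26, adjusted p = 0.0453). Their means were 98.2 ± 11.5 against 214 ± 48.9 FPKM for Ctsl, 186 ± 39.4 against 414 ± 131 for Lgmn, 641 ± 121 against 1260.3 ± 316 for Ctss and 780.3 ± 204 against 1672.5 ± 503 for Ctsd (SD, n = 7 and 3). For Cst3 the means were 4787 ± 278 and 9133 ± 3839 FPKM, a difference of -0.86 that missed the threshold (limma adjusted p = 0.0609). The others were Ctsz (-0.64), Ctsb (-0.84), Npc2 (-0.72), Cd68 (-0.68) and Lamp1 (-0.27), with adjusted p from 0.0542 to 0.347. In 5 of 10 genes (Cst3, Ctsl, Ctss, Ctsz and Npc2) every female was below every numbered male, as in 4.48% of all genes tested. The median difference of the 10 genes was -0.85, and that of all genes 0.05.

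These sex differences rested on few libraries and changed when the microglia markers entered the fit. The 14 microglia markers all had lower means in females (median -0.95), and 5 passed the test, among them Tyrobp (-1.35) and Csf1r (-1.05). With the mean of these markers as a covariate, none of the 10 genes passed, the median was -0.27, and Lamp1, Npc2 and Cd68 were above 0. That mean was lower in 7 of 7 females than in every numbered male. Sex and the covariate therefore cannot be told apart in this fit. Without SST3-M no gene passed, and without SST4-M 7 did. Leaving out SST-F raised the count to 8 of 10, whereas without each of the other 6 females only Ctsl passed. Under quantile normalization 2 passed (Ctsl and Lgmn), and Lamp1 was above 0.

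Which males served as controls decided the direction for several genes. With all 6 male samples, 4 of 10 genes were called lower in females, against 5.44% of all genes: Lgmn (-1.58), Ctss (-1.40), Ctsz (-0.85) and Ctsl (-0.75), while Cst3 stood at -0.08 (limma adjusted p = 0.895). With the 3 dated males alone, Lgmn (-2.05), Ctss (-1.85) and Ctsz (-1.06) were called lower, as were 19.1% of all genes, and Cst3 was called higher in females (0.69, SE 0.21, limma adjusted p = 0.0200), as were 22.4% of all genes. Ctss and Lgmn were called lower in females against each of the 3 sets of males, whereas the sign for Cst3 turned with the set. The sets share samples and do not stand for separate tests. With the dated males, sex and title series cannot be told apart.

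**Figure D4:**
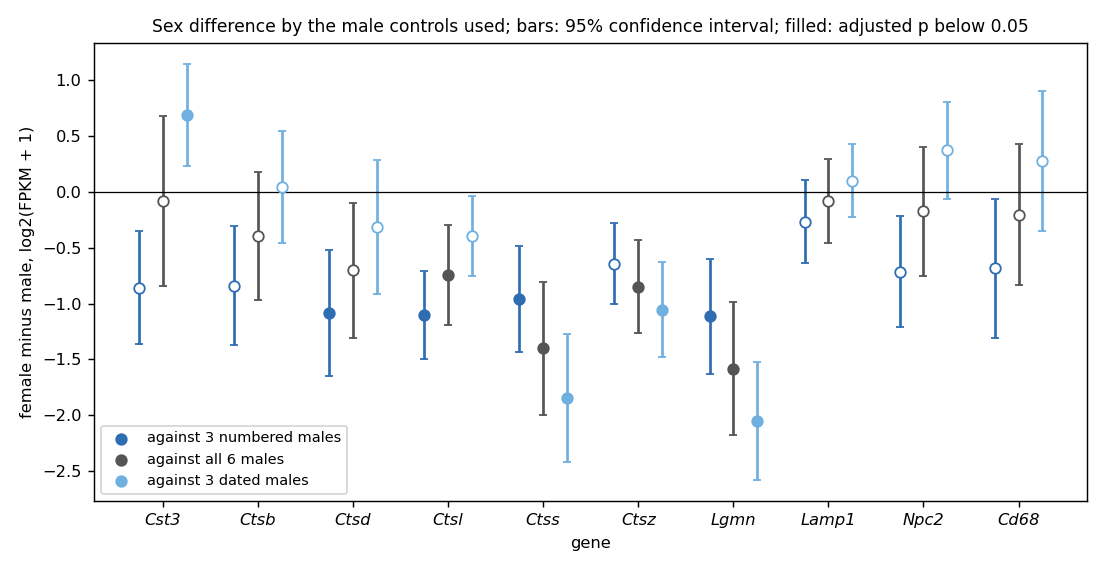
Female minus male difference of log2(FPKM + 1) for each gene, against the 3 numbered males, all 6 males or the 3 dated males; bars are 95% confidence intervals (limma) and filled points have an adjusted p below 0.05. Ctss and Lgmn are filled and below 0 in all 3 comparisons, and Cst3 runs from -0.86 to 0.69.

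The CUS comparison in Sst males did not exceed the spread between samples for any of the 10 genes by the test. Compared with all 6 male controls, all 10 genes had a negative difference after CUS (median -0.77, all genes 0.02), but 0 of 10 passed the test (limma adjusted p 0.641 to 0.860), as against 0.00698% of all genes, which is 1 of 14319. At an unadjusted p under 0.05 there were 3, Cd68 (-1.20, 95% confidence interval -2.05 to -0.34), Ctsd (-0.97, -1.83 to -0.11) and Ctsl (-0.75, -1.43 to -0.06). The CUS samples lay below every male control for 4 of the 10, Ctsd, Ctsl, Lamp1 and Cd68, and so did 3.23% of all genes tested. Cd68 averaged 110 ± 21.7 FPKM after CUS and 271 ± 120.0 in the controls, and Cst3 2248 ± 213 and 6097 ± 4168 (SD, n = 3 and 6).

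All CUS libraries had dated titles, so the dated controls are the nearer comparison. Against these 3 samples, 0 of 10 genes passed (0.00705% of all genes; 1 of the 10 at an unadjusted p under 0.05) and all 10 differences were below 0, with a median of -0.46. Cd68 stood at -0.72 (95% confidence interval -1.37 to -0.07), Lgmn at -0.70 (-1.43 to 0.02) and Cst3 at -0.40 (-1.08 to 0.28). The CUS samples were below every dated control in 6 of 10 genes (Ctsd, Ctsl, Ctsz, Lgmn, Lamp1 and Cd68), against 9.39% of all genes. SS04031R was the highest dated control for all 10 genes. It also had the highest microglia markers of the dated samples, with a mean log2(FPKM + 1) of 8.98 against 7.54 to 7.96 in the 5 others. Without it the differences fell to -0.46 for Cd68, -0.38 for Lgmn and -0.14 for Cst3, with 0 of 10 genes passing. The titles of all CUS libraries begin as SS04031R does, and those of the other dated controls, SST040241L and SST04241LL, do not. Without SS04031R, CUS and this part of the title cannot be told apart. The 14 microglia markers were likewise all below 0 against the dated controls (median -0.62, none called), while the 6 oligodendrocyte (median 0.94) and 5 endothelial markers (median 1.57) were all above 0. SS04031R was the lowest dated control for both lists, and the endothelial rise rested largely on it, the oligodendrocyte rise in part. Its mean log2(FPKM + 1) was 5.40 for oligodendrocytes, against 6.78 and 6.96 in the other dated controls and 7.26 to 7.54 after CUS. For endothelial cells it was 1.32, against 4.17 and 4.35 in the other dated controls and 4.38 to 5.04 after CUS. Against all 6 male controls with the microglia mean as a covariate, 0 of 10 genes were called, 6 were below 0 and the median was -0.05. That mean was lower in 3 of 3 CUS samples than in every male control, so this fit cannot tell it apart from CUS. The part of these cell types in the result was otherwise not tested.

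Against the 3 numbered controls the picture differed. There 6 of 10 genes were called lower after CUS, Cst3 (-1.95), Cd68 (-1.68), Ctsd (-1.35), Npc2 (-1.33), Ctsb (-1.27) and Ctsl (-1.10), as were 7.67% of all genes. Ctss (0.25) and Lgmn (0.23) were not called and had the opposite sign. In that comparison CUS and title series cannot be told apart.

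The title series themselves were compared within the male controls, 3 dated against 3 numbered samples. None of the 10 genes passed the test (lowest limma adjusted p = 0.0989; 3 at an unadjusted p under 0.05), with 4.11% of all genes called. Cst3 was lower in the dated samples by -1.55 (95% confidence interval -2.61 to -0.49), Npc2 stood at -1.09 and Cd68 at -0.96, and for these 3 every dated sample was below every numbered one. Ctss (0.89, -0.15 to 1.92) and Lgmn (0.94, -0.05 to 1.92) had the opposite sign and did not overlap in the other direction. Ctsz (0.41) shared their sign and its groups overlapped. The groups did not overlap, in either direction, for 5 of 10 genes (Cst3, Npc2, Cd68, Ctss and Lgmn) and for 33.5% of all genes tested. Under quantile normalization Ctss turned below 0.

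**Figure D5:**
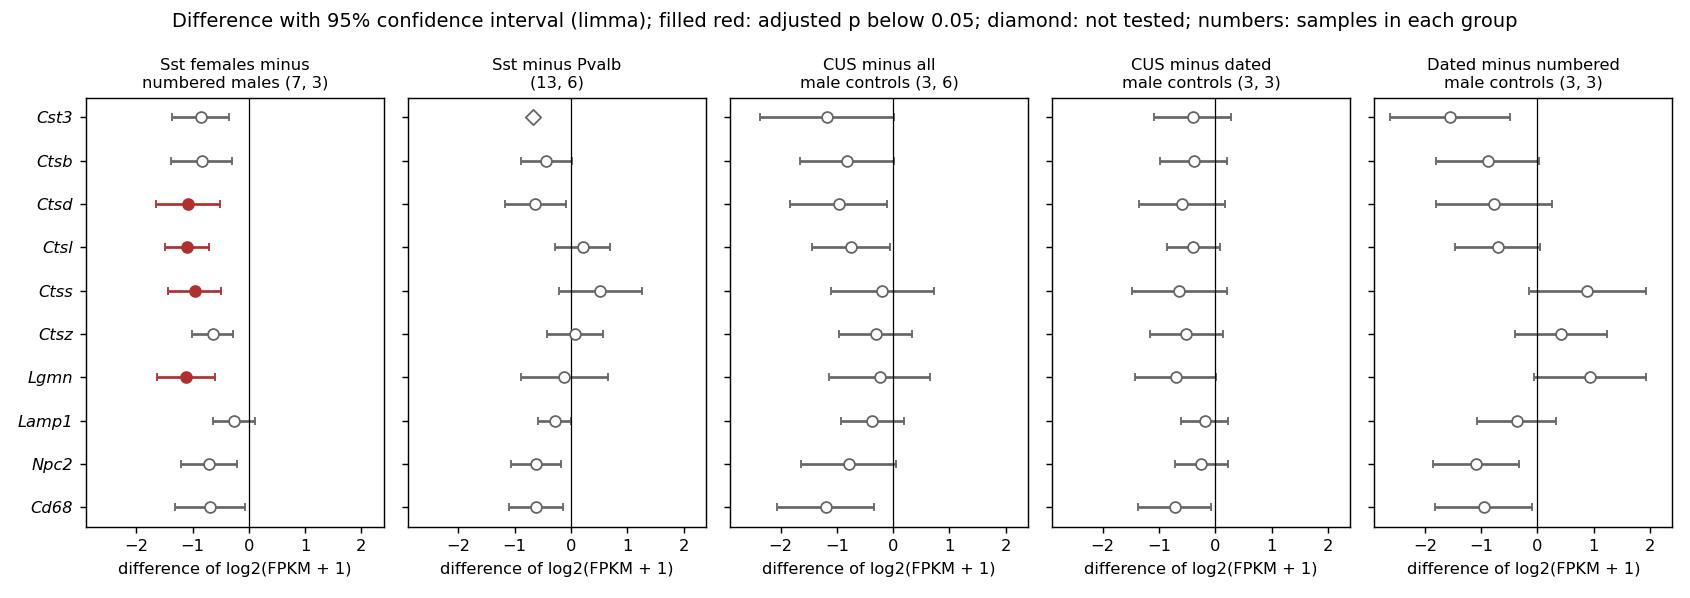
Differences of log2(FPKM + 1) with 95% confidence intervals (limma) for the 10 genes in 5 comparisons, with the number of samples in each group in brackets; filled red points have an adjusted p below 0.05, and the diamond is Cst3 in the line comparison, which was not tested. Only the sex comparison has filled points (Ctsd, Ctsl, Ctss and Lgmn), and the last panel shows Ctss, Ctsz and Lgmn on the other side of 0 from the remaining 7 genes.

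Sst and Pvalb lines were compared over 13 nonstressed Sst samples of both sexes and 6 Pvalb males. Cst3, chosen for its level in Pvalb libraries, had means of 5392 ± 2782 in Sst and 8053 ± 1799 FPKM in Pvalb samples (SD, n = 13 and 6), given without a test. Sst, at 12.5 to 30.5 FPKM in the Pvalb samples and 0 to 49.3 in the Sst samples, did not separate the lines as labelled. Of the 9 other genes, 0 passed (limma; 3 at an unadjusted p under 0.05), against 7.8% of all genes. Npc2 (-0.62, 95% confidence interval -1.07 to -0.17, adjusted p = 0.0786), Cd68 (-0.62, -1.10 to -0.14) and Ctsd (-0.64, -1.18 to -0.10) were those 3, and Ctss stood at 0.52 (-0.22 to 1.26). The groups overlapped for all of them. All 14 microglia markers had lower means in the Sst samples (median -0.55), with 1 called, C1qc (-1.09), and 4 of 5 endothelial markers were called higher.

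Sex and title series entered this comparison, since all Pvalb samples were labelled male and were of the numbered kind. With the 7 Sst females alone, 6 of 9 genes were called lower than in Pvalb samples, Ctsd (-0.96), Lgmn (-0.85), Cd68 (-0.72), Npc2 (-0.70), Ctsb (-0.62) and Lamp1 (-0.33), against 12.2% of all genes, and 13 of the 14 microglia markers were called lower too. In the 6 Sst males alone, 1 of 9 was called, Ctss, which was higher in Sst (1.27, limma adjusted p = 0.0463; 3.41% of all genes called). Of these males 3 were dated, with Ctss at 1645 to 3831 FPKM, and 3 were numbered, with 916 to 1536. Restricted to Sst samples with numbered titles, 0 of 9 passed (10.2% of all genes; 3 at an unadjusted p under 0.05), and without the 3 Pvalb libraries high in Xist 0 of 9 passed (0.0964% of all genes; 1 at an unadjusted p under 0.05).

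Other genes of the lysosome were counted by lists. Of 7 other cathepsins tested in the sex comparison, 1 was lower in females, Ctsc, which activates granule proteases (-0.90), and 0 were higher, and of 34 lysosomal hydrolases 3 were lower. Among these were Prcp (-1.45), a carboxypeptidase, and Aga (-1.08), which cleaves glycoasparagine. Of 14 lysosomal membrane proteins 1 was lower, Laptm5 (-0.92), of 16 subunits and partners of the proton pump (V-ATPase) 1 was lower, Atp6ap2 (-1.39), and of 6 sorting proteins 1 was higher, the mannose 6-phosphate receptor Igf2r (1.12). No gene passed among 3 other cystatins, 3 activators with granulin or 3 factors of the TFEB family. Of the hydrolases 27 of 34 and of the pump genes 14 of 16 had lower means in females, against 45.9% of all genes. Among all genes tested 1.66% were called lower and 1.75% higher in females.

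Between the lines, the pump genes were called in both directions. Atp6v1g2 (-1.54) and Atp6v0b (-1.05) were lower in Sst samples and Atp6v1h (1.06) and Atp6v0c higher. Atp6v0c was listed at 0 in 4 of 6 Pvalb samples, with at most 9.84 FPKM in the others, and at 2.55 to 48.5 in the Sst samples. Ctsk, the collagen-cleaving cathepsin of osteoclasts, was likewise called higher, at 0.353 to 2.33 FPKM in Sst samples and at 0 in 4 of 6 Pvalb samples. It passed the filter of 0.4 FPKM only through the Sst samples (mean 1.02 FPKM, against 0.0512 in Pvalb samples). Its call lies near the floor and is no support for a line difference. Ppt2 (1.02), a thioesterase, and Tmem192 (0.88), a membrane protein, were higher, while Laptm5 (-0.87), Arsb (-0.74), a sulfatase, Cln3 (-0.73), Nagpa (-0.80) and the activator Gm2a (-0.71) were lower. These were 1 of 7 other cathepsins, 2 of 34 hydrolases, 3 of 14 membrane proteins, 1 of 6 sorting proteins, 1 of 3 activators with granulin and 4 of 16 pump genes, where 7.8% of all genes tested were called. Neither of 2 cystatins nor any of 3 TFEB family factors passed.

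Between the title series, 1 of 13 lysosomal membrane proteins tested was called higher and 1 lower in the dated controls, where 1.81% of all genes were called higher and 2.30% lower. Lamp2, the close relative of Lamp1, had 168, 207 and 249.8 FPKM in the numbered male controls and 44.6, 61.4 and 72.9 in the dated ones (-1.79), whereas Scarb2, the receptor that sorts glucocerebrosidase, had 28.2, 42.5 and 43.8 and 97.7, 102 and 158 (1.61). Ids (-1.99), Lipa (-1.32), Atp6v1g2 (-1.88) and Atp6v0b (-1.78) were also lower in the dated samples, 2 of 33 hydrolases and 2 of 16 pump genes. Of 7 other cathepsins, 2 cystatins, 3 activators with granulin, 6 sorting proteins and 3 TFEB family factors none was called. In the CUS comparison none of these lists held a called gene.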

How the data were processed

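RNA-seq of FACS-sorted tdTomato cells was represented by 1 table of FPKM values for 24 libraries of 30 samples in the labels, and the 6 others were not analysed here. The FPKM values were used as the authors deposited them. Per the study's methods, reads were trimmed at Q30 with a minimum length of 45, annotated against mm9 with TopHat2, aligned to mm10 with HISAT2 and counted with StringTie, samples beyond a set deviation were removed, and ComBat was used, without a statement whether it applies to the deposited values. The submitters' processing notes name TopHat2, Cufflinks, Cuffdiff and mm10. Read counts were not used here, so depth is unknown.

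Libraries were averaged where the SD of their log2 ratio was under 10% of that of the next pair in the group (0.0212 against 0.267 for SST0-M and SST1-M, 0.0170 against 0.225 for PV0-M and PV2-M), leaving 22 samples. Genes with a mean above 0.4 FPKM were tested on log2(FPKM + 1), with a pseudocount of 1, by limma 3.58.1 (R 4.3.3, trend and robust, two-sided), and Benjamini-Hochberg adjusted p below 0.05 over all genes tested was called. Differences on this scale understate changes of low genes. Sex, line, CUS and title series were compared, and Cst3 was not tested between lines. The numbers in titles did not pair the samples, so no block was used. Symbols were matched to RefSeq (GRCm38.p6), 22496 of 23993 with success. Code was tested on simulated data.

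The text names the 10 genes, up to 2 called rises and 2 called falls of each pathway list, the 5 genes most like Cst3, and Sst and Pvalb. A called gene of the pathway lists is not reported here. Single marker genes and Xist were named after their values had been seen. The members, lists and motifs were chosen with earlier results of these data known. Alternatives covered the filter, pseudocount, scaling, covariates, choice of samples and leaving out each sample, and those without SST-F or SS04031R were added after seeing the data.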

Additional observations from a re-analysis of the deposited data

Results flagged for a closer look

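Of 33 groups and measures of 4 to 10 samples examined, 8 had a highest or lowest sample that stood far from the others by Dixon's criterion, which chance alone meets in about 1 of 20 groups. The measures share samples and are not independent.

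In the Sst control females, SST-F, the library whose title lacks a number, was far above the 6 others for Ctsd (1201 FPKM), Ctsl (123 FPKM), Ctss (909 FPKM) and Lgmn (272 FPKM). Its ratio of Cst3 to the summed cysteine cathepsins (3.69) was far below that of the others.

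In the Pvalb control males, the averaged PV0-M and PV2-M was far below the 5 others for Cst3 (4399 FPKM) and far above them for Ctsd (1983 FPKM) and Npc2 (69.2 FPKM).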

How the results depend on the processing

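The sex difference depended most on the settings. Of the 10 genes, 4 were called in the comparison reported, 2 under quantile normalization, 8 with every library as a sample, 0 with the microglia markers as a covariate and 8 without SST-F. Leaving out each sample in turn gave 0 to 8, and Cst3 turned to 0.69 with dated males only. Between lines, 0 of 9 were called, against 1 with male and 6 with female Sst samples only, and 0 to 2 (2 without SST0-M and SST1-M, 2 without SST3-M) when each sample was left out. After CUS, 0 of 10 were called, 6 with numbered controls only, and 0 when each sample was left out. Between title series, 0 of 10 were called, against 2 under quantile normalization (Cst3 and Ctsd), 1 with every library as a sample (Cst3), and 0 when each sample was left out. The cause of these changes was not tested.

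With a replicate block that paired title numbers 1, 3 and 4, 0 genes were called between the sexes, and Cst3 stood at -0.04 between the lines. Of the 9 other genes, 1 was below 0 between the lines with the block (median 0.27, 0 called) against 6 without it (median -0.29), and Ctsb, Ctsd, Lgmn, Npc2 and Cd68 changed sign. Same-numbered samples did not deviate together (correlation -0.0395 to 0.069), and only number 3 between lines correlated best with its own number. With so few numbers, and SST1-M near-identical to SST0-M, this check cannot show that samples were unpaired. The block also kept only samples with these numbers, so it is no evidence of a weaker effect.

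Over all genes, calls in the sex comparison numbered 253 higher and 240 lower, and in all 2549 with every library as a sample, 45 with the microglia covariate, 1699 with all 6 males, 6032 with dated males, 11 with the block, 1787 without SST-F and 100 to 1787 when each sample was left out. Line calls numbered 1133, and 332 with the covariate, 491 with male and 3638 with female Sst samples, 14 without the 3 libraries high in Xist, 10 with the block and 389 to 2130 when each sample was left out. CUS calls numbered 1, and 3 without a filter or with every library, 2309 with numbered controls, 6 with controls of both sexes, 16 with dated controls without SS04031R and 1 to 3 when each sample was left out. Title series calls numbered 585, and 381 without a filter, 1106 under quantile normalization, 1769 with every library, 297 with the covariate, 149 without SS04031R and 54 to 1962 when each sample was left out. Of the sex calls 51.3% were higher in females, against 66.7% with the covariate and 81.5% after scaling to a common total without small nucleolar RNA, which moved the median of all genes to 0.26, with all 10 members below it. By Spearman's rho, 2 of the 5 genes most like Cst3 were the same. The depth behind the FPKM values is unknown.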
